A study of Mus musculus with 15 samples.

Results

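The genes described here are 10 members of the transforming growth factor beta (TGF-beta) signalling pathway, read here in the mouse macrophage cell line RAW264.7. They are the ligand Tgfb1, the receptors Tgfbr1 and Tgfbr2, the signal carriers Smad2, Smad3 and Smad4, the inhibitors Smad7, Ski and Skil, and Tgfbi, a gene named for its induction by TGF-beta. A gene was taken where a probe set of the array carried that gene symbol and no other, and each of the 10 had exactly 1 such probe set. They are 10 of 22180 genes with a probe set, and all 10 stood above the filter on low values in all 15 arrays, so that they belong to the 15468 genes tested. Tgfbi was chosen by its difference between LPS with vehicle and no LPS, already known from these arrays, and the probe set of a gene by its mean over all 15 arrays. The Tgfbi values in that comparison are therefore given as a description, with no test. The other members and the gene lists were also chosen with earlier results of these data known. This limits how their p-values can be read.

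TGF-beta is secreted as a latent complex and, once released, binds the type II receptor, which recruits and phosphorylates the type I receptor. The type I receptor phosphorylates SMAD2 and SMAD3, which join SMAD4 and enter the nucleus to bind target genes. SMAD7 blocks the receptor, and SKI and SKIL (SnoN) hold SMAD complexes in a repressed state. In macrophages the pathway is best known for restraining inflammatory activation and for maintaining the resting programme of tissue-resident cells such as microglia.

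The study asked how 13- and 16-hydroxydocosahexaenoyl ethanolamide (13-HDHEA and 16-HDHEA) alter the response of these macrophages to lipopolysaccharide (LPS), the bacterial membrane component sensed by a Toll-like receptor. Both compounds are hydroxylated forms of the ethanolamide of docosahexaenoic acid, and they are positional isomers that differ in the carbon carrying the hydroxyl group. Each of 5 groups held 3 arrays: 5.0 µM 13-HDHEA with LPS, 5.0 µM 16-HDHEA with LPS, 2.5 µM of each compound with LPS (the combined treatment), vehicle with LPS, and vehicle without LPS. All cells, those without LPS included, received 0.1% ethanol for 30 min before 1.0 µg/mL LPS or its buffer was added, and all were harvested after 24 h. The labels tie each of the 3 replicate numbers to a separate experiment, and every experiment holds 1 array of each group. All groups are of 1 tumour-derived cell line, so the replicates are repeat experiments and not animals.

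Values are log2 expression as deposited, and 1 unit is a doubling. They ran from 0.473 to 13.36 over all probe sets, with array medians of 3.62 to 3.69, and the 3 arrays a group limit the precision of each value. Of 10 macrophage markers, 9 stood above the filter on low values in all 15 arrays. Their mean log2 level was 10.25 to 10.33 with LPS and vehicle and 9.64 to 9.84 without LPS, with 3 markers higher (Adgre1, Fcgr1 and Cd14) and 1 lower (Csf1r). Among markers of other cells, the 8 fibroblast genes averaged 3.44 to 3.48 with LPS and vehicle and 3.22 to 3.34 without LPS. Of these, 3 of 8 stood above the filter on all 15 arrays, Lum was below it on every array, and Pdgfra, at 5.12 with LPS and vehicle and 4.16 without LPS, was higher and the 1 of 7 tested that was called (adjusted p = 0.0472 by limma). The 5 epithelial genes averaged 3.69 to 3.83 against 3.75 to 3.86 and none was called, and the 5 endothelial genes averaged 3.92 to 4.20 against 3.78 to 4.03 with Cdh5 higher and Vwf lower. In each of these lists 3 of 5 stood above the filter on all 15 arrays. The 5 lymphocyte genes averaged 2.92 to 3.16 against 2.86 to 3.13, 1 of 5 stood above the filter on all 15 arrays, and Cd3e and Ms4a1 were below the filter on every array. The part of these lists in the results below was not tested.

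LPS moved the members in both directions. The inhibitors Skil and Smad7 rose, while both receptors, Tgfbr1 and Tgfbr2, and the signal carrier Smad3 fell, and Tgfbi stood 6.65-fold lower. Tgfb1, Smad2, Smad4 and Ski were not called. Thus 2 of the 9 members tested were called higher and 3 lower by limma with Benjamini-Hochberg adjustment over all 15468 genes. Among all genes tested, 13.5% were called higher and 16.3% lower, and since the members were chosen with earlier results known, nothing is read from their share. The median difference of the 9 was -0.04 and that of all genes was 0.00. On arrays of whole cultures, fewer cells expressing a gene and less RNA per cell cannot be told apart.

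**Figure D1:**
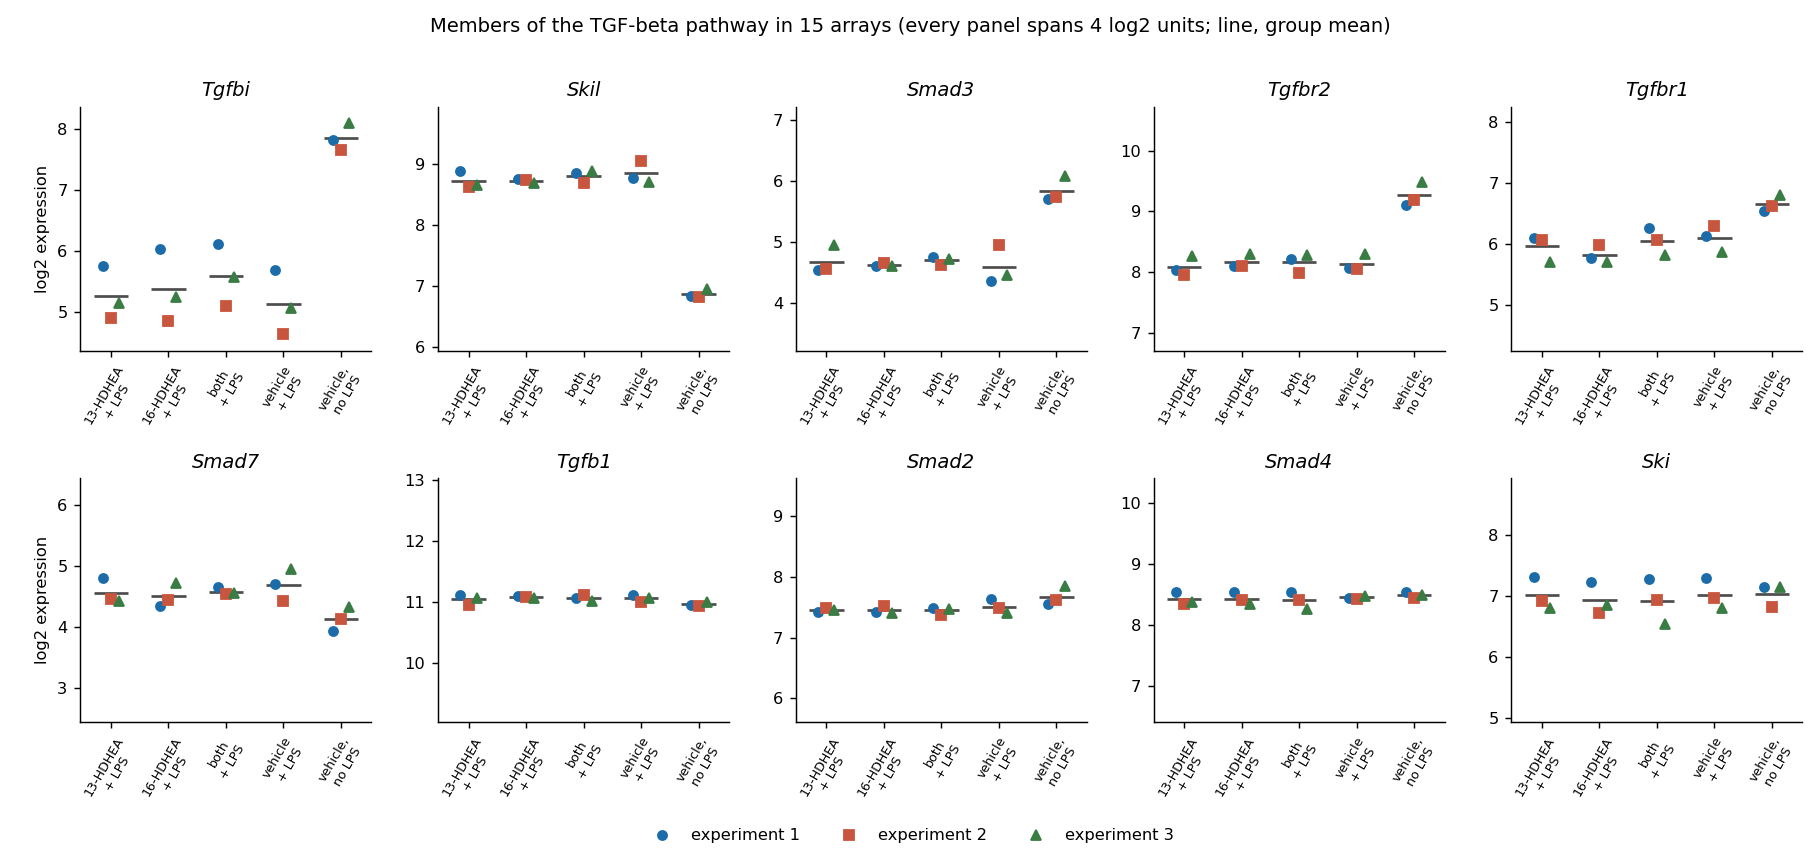
Deposited log2 expression of the 10 members, 1 panel a gene, with the groups from left to right as 13-HDHEA with LPS, 16-HDHEA with LPS, combined treatment with LPS, vehicle with LPS and vehicle without LPS. Points are the 3 experiments and lines the group means, and every panel spans the same number of log2 units. In Tgfbi, Tgfbr1, Tgfbr2 and Smad3 all 12 arrays with LPS lie below the 3 without it, and in Skil and Smad7 all 12 lie above.

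The plot of the members by sample shows that for 6 members the groups with and without LPS did not overlap on any array. In Tgfbi, Tgfbr1, Tgfbr2 and Smad3 all 12 arrays with LPS lay below all 3 without it, which held for 16.1% of all genes tested. In Skil and Smad7 all 12 lay above, which held for 12.3% of all genes tested. In Tgfb1, Smad2, Smad4 and Ski, the level in at least 1 of the 12 arrays with LPS lay within the range of the 3 arrays without LPS.

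Tgfb1 encodes the main TGF-beta ligand of immune cells. Its level was 11.12, 11.01 and 11.08 in experiments 1, 2 and 3 with LPS and vehicle, against 10.96, 10.94 and 11.00 without LPS. The 3 values with LPS and vehicle were all above the 3 without it, but the groups differed by only 0.10 (95% interval -0.05 to 0.25) and the gene was not called (limma adjusted p = 0.326). Over all 12 arrays with LPS it ranged from 10.96 to 11.12.

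Tgfbr2 encodes the type II receptor that binds the ligand first. It measured 8.07, 8.06 and 8.31 in the 3 experiments with LPS and vehicle, against 9.11, 9.19 and 9.49 without LPS. Every experiment showed the same gap, from -1.18 to -1.05. Tgfbr2 fell by 1.12 (SE 0.13, 2.18-fold, limma adjusted p = 9.11e-06). The means with 13-HDHEA, 16-HDHEA and the combined treatment, 8.09, 8.17 and 8.17, lay within 0.06 of the vehicle mean of 8.14.

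Tgfbr1 encodes the type I receptor kinase that phosphorylates SMAD2 and SMAD3. It measured 6.14, 6.29 and 5.88 in the 3 experiments with LPS and vehicle, against 6.54, 6.62 and 6.80 without LPS. The gap was widest in experiment 3, at -0.93, against -0.40 in experiment 1 and -0.33 in experiment 2. Tgfbr1 fell by 0.55 (SE 0.15, 1.47-fold, limma adjusted p = 0.00983). Without the LPS and vehicle array of experiment 3 the difference was -0.44, and it was not called (adjusted p = 0.051).

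Smad3 encodes the receptor-activated SMAD that binds DNA directly. Its level was 4.35, 4.94 and 4.45 with LPS and vehicle, against 5.70, 5.73 and 6.08 without LPS. Experiment 2 had the highest value with LPS and the smallest gap, -0.79, and the gaps in experiments 1 and 3 were -1.35 and -1.63. Smad3 fell by 1.26 (SE 0.15, 2.39-fold, limma adjusted p = 2.06e-05). Smad2, its partner that binds DNA only weakly by itself, averaged 7.51 ± 0.11 with LPS and vehicle and 7.67 ± 0.16 without LPS (SD, n = 3 each), a difference of -0.16 (95% interval -0.35 to 0.03) that was not called. Smad4, the shared partner of all receptor-activated SMADs, averaged 8.45 ± 0.03 and 8.49 ± 0.05 in the same order. Its difference of -0.04 (95% interval -0.23 to 0.15) was not called either, and it was 0.02 when each array was centred on its median. The 3 signal carriers therefore did not share a call: 1 of the 3 was called, and whether the difference in Smad3 exceeded that in Smad2 or Smad4 was not tested.

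Skil encodes SnoN, a corepressor of SMAD complexes that is itself a TGF-beta target. It measured 8.78, 9.06 and 8.71 in the 3 experiments with LPS and vehicle, against 6.85, 6.83 and 6.96 without LPS. All 3 experiments showed a gap of more than 1 unit, from 1.75 to 2.23. Skil rose by 1.97 (SE 0.10, 3.92-fold, limma adjusted p = 6.06e-09), which placed it 174th from the highest of 15468 genes.

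Smad7 encodes the inhibitory SMAD that brings ubiquitin ligases to the type I receptor. Its level was 4.70, 4.42 and 4.95 with LPS and vehicle, against 3.93, 4.14 and 4.33 without LPS. The gap was 0.77 in experiment 1, 0.28 in experiment 2 and 0.62 in experiment 3. Smad7 rose by 0.56 (SE 0.15, 1.47-fold, limma adjusted p = 0.0115). The call was lost without the LPS and vehicle array of experiment 3 (0.43, adjusted p = 0.0593) and without the no-LPS array of experiment 1 (0.46, adjusted p = 0.0573). With the first of these arrays left out, 3 of the 9 members were called in place of 5.

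Ski, the related corepressor, averaged 7.03 ± 0.26 with LPS and vehicle and 7.04 ± 0.18 without LPS (SD, n = 3 each). The difference of -0.01 (95% interval -0.45 to 0.42) was not called. Its sign was not stable, since it was 0.05 with arrays centred on their medians and ranged from -0.15 to 0.10 when 1 array was left out. Among the arrays with LPS, Ski differed by experiment: the 4 arrays of experiment 1 measured 7.24 to 7.32, above the 6.73 to 6.97 of experiment 2 and the 6.55 to 6.86 of experiment 3. Without LPS it measured 7.15, 6.83 and 7.15 in experiments 1, 2 and 3, so that experiment 3 was not low there.

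Tgfbi encodes a secreted matrix protein with fasciclin domains that binds integrins and collagen. Its promoter is shown first, with those of Tgfbr2 and Smad3, because these are the 3 members with the lowest LPS difference and because SMAD3 and SMAD4 bind a short DNA element, the SMAD box. The sequences are the 250 bases before the annotated start, 5′ to 3′ on the gene's strand, from RefSeq on GRCm38.p6, and capitals mark the SMAD box CAGAC or its reverse complement GTCTG. The windows are chr13:56609336-56609585 (plus strand) for Tgfbi, chr9:116175364-116175613 (minus strand) for Tgfbr2 and chr9:63757995-63758244 (minus strand) for Smad3.
Tgfbi: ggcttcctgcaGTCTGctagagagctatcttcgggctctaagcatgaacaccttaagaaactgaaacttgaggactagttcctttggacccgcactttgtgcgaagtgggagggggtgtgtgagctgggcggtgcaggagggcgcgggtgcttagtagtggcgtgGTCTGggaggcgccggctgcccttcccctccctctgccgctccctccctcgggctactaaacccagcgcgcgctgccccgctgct
Tgfbr2: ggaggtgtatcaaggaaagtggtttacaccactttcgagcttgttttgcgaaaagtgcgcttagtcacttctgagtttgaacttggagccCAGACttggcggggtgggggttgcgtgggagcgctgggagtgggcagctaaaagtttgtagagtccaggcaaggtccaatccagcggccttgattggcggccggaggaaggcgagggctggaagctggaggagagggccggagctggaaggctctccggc
Smad3: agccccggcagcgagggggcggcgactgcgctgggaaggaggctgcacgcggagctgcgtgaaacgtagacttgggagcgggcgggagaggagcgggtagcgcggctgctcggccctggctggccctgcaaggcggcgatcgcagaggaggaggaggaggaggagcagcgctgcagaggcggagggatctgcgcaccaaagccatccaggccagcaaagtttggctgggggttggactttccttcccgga

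The Tgfbi window held 2 SMAD boxes, 239 to 235 and 85 to 81 bases before the start. The Tgfbr2 window held 1, 160 to 156 bases before the start, and the Smad3 window held none. Of the other members with a window, Tgfb1 and Ski held none, and of the 2 windows of Tgfbr1 1 held a SMAD box, 203 to 199 bases before the start. The 5 letters, read on both strands, occur in 42.2% of 32851 mouse windows of the same length, so that a match is common. No window of these 6 genes held the AP-1 motif TGANTCA, present in 6.75% of all windows, or the NF-kB consensus, present in 3.9%. Skil, Smad2, Smad4 and Smad7 are named only. A match describes letters in the window and not a bound site.

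Tgfbi measured 5.69, 4.63 and 5.06 in experiments 1, 2 and 3 with LPS and vehicle, against 7.83, 7.65 and 8.10 without LPS. The groups were far apart on every array, and the gap was -2.14 in experiment 1, -3.02 in experiment 2 and -3.04 in experiment 3. The group means of 5.12 ± 0.53 with LPS and vehicle and 7.86 ± 0.23 without LPS (SD, n = 3 each) differed by -2.73, or 6.65-fold. This was the 7th lowest of the 15468 differences. The genes next to it in that order were Ccnb2 (-2.84, the 5th) and Cdkn2c (-2.84, the 6th), a cyclin and a cyclin-dependent kinase inhibitor, and then Cd300lg (-2.63) and the spindle gene Aspm (-2.59).

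The other arrays with LPS were similarly low in Tgfbi. It measured 5.75, 4.90 and 5.15 with 13-HDHEA, and 6.03, 4.85 and 5.24 with 16-HDHEA. With the combined treatment it measured 6.11, 5.10 and 5.58. From the highest group mean to the lowest, the order was no LPS (7.86), combined treatment (5.595), 16-HDHEA (5.37), 13-HDHEA (5.27) and LPS with vehicle (5.12). Neighbours among the 4 groups with LPS differed by less than the SD within a group, 0.44 to 0.60, while the group without LPS stood clear of the rest.

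**Figure D2:**
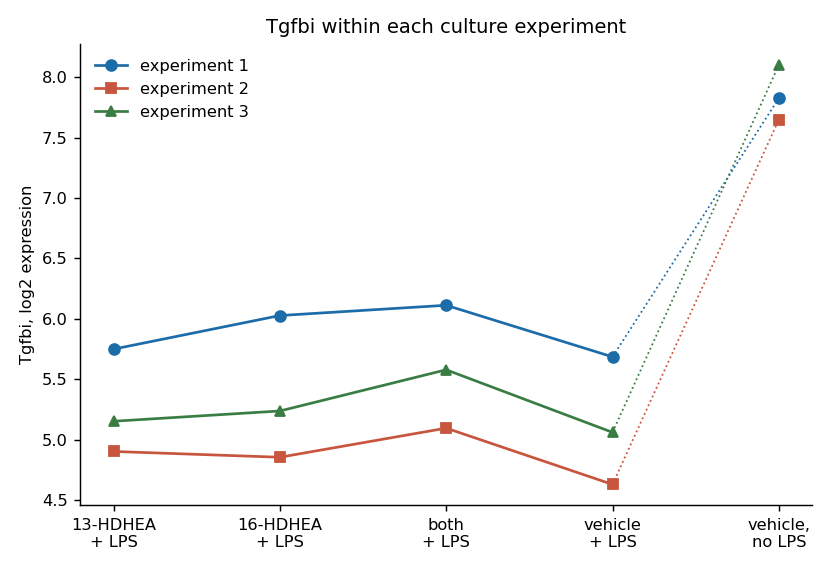
Deposited log2 expression of Tgfbi (vertical axis) in the groups from left to right as 13-HDHEA with LPS, 16-HDHEA with LPS, combined treatment with LPS, vehicle with LPS and vehicle without LPS, with 1 line for each of the 3 experiments. Among the arrays with LPS, those of experiment 1 (5.69 to 6.11) lie above those of experiment 3 (5.06 to 5.58) and experiment 2 (4.63 to 5.10), and in each experiment the lowest point is LPS with vehicle.

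The lines of Tgfbi by experiment show that much of its spread with LPS lay between experiments. The 4 arrays with LPS averaged 5.89 in experiment 1, 4.87 in experiment 2 and 5.26 in experiment 3, a range of 1.02. The lowest array of experiment 1, 5.69, was above the highest of the other experiments, 5.58. Ski had the next widest range among the members, 0.53, with experiment 1 again the highest. For the other 8 members the experiment means ranged over 0.06 to 0.33.

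No member was called in any comparison of an HDHEA treatment with vehicle in LPS-treated cells. With 13-HDHEA the 10 differences ran from -0.14 in Tgfbr1 to 0.14 in Tgfbi, where 0.00646% of all genes tested were called, a single gene, Mnd1. With 16-HDHEA they ran from -0.29 in Tgfbr1 to 0.25 in Tgfbi, and 0% of all genes were called. With the combined treatment they ran from -0.11 in Smad7 to 0.47 in Tgfbi, and 0% of all genes were called. For the mean of the 3 HDHEA groups 0% were called as well, and the members ran from -0.16 in Tgfbr1 to 0.29 in Tgfbi. Of the 10 members, 0 had an unadjusted p under 0.05 in any of these limma fits, where 660 genes with 13-HDHEA, 460 with 16-HDHEA, 539 with the combined treatment and 586 for the mean of the 3 did.

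All 3 treatments share the same vehicle arrays, and these arrays also entered the LPS difference for which Tgfbi was known. The comparisons are thus not independent of one another or of that choice. The 95% intervals of the 9 members other than Tgfbi lay within -0.45 to 0.42 with 13-HDHEA, within -0.60 to 0.37 with 16-HDHEA and within -0.54 to 0.44 with the combined treatment.

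**Figure D3:**
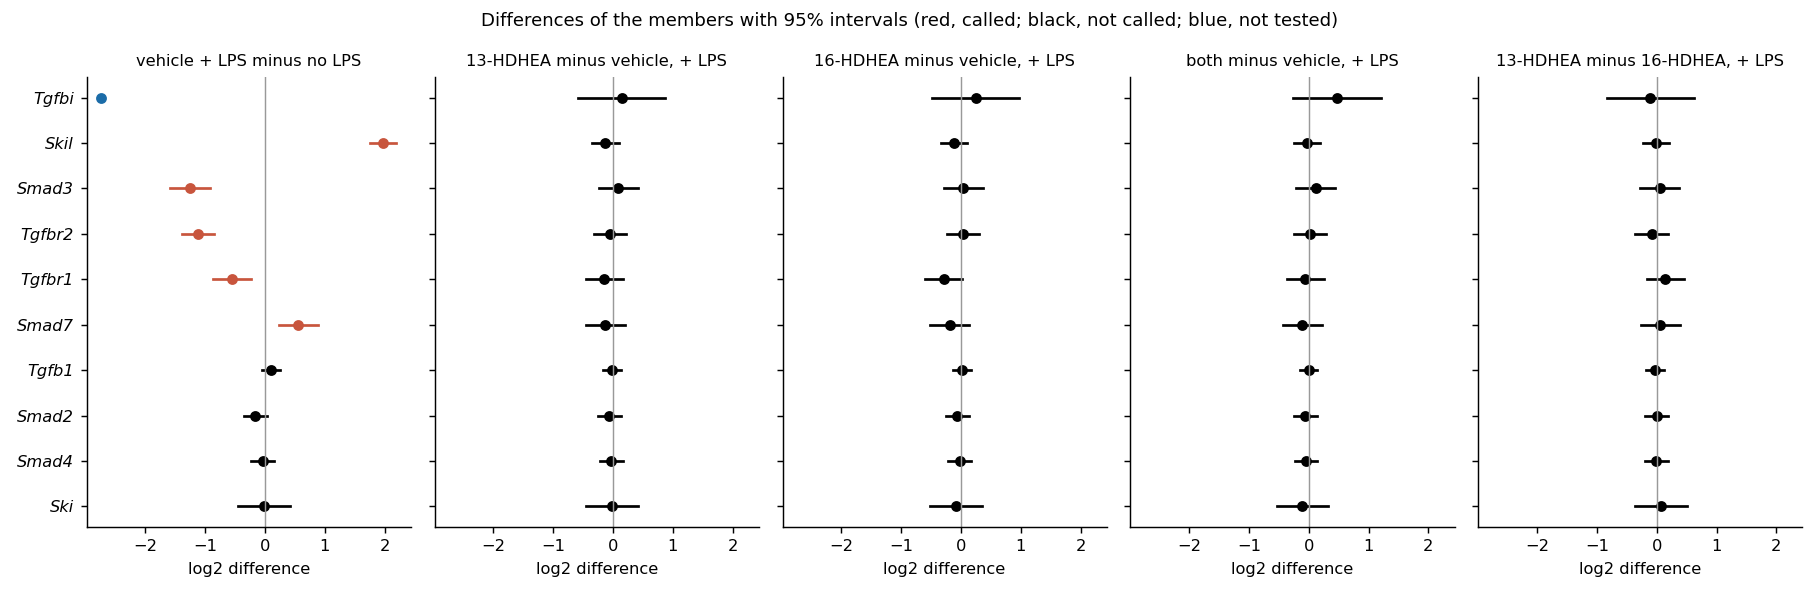
Log2 differences of the 10 members (horizontal axis) with their 95% limma intervals, in 1 panel a comparison, each as the first group of the panel's name minus the second. Red marks a member called at an adjusted p under 0.05, black one not called and blue the LPS difference of Tgfbi, which was not tested and has no interval. Called members appear only in the comparison of LPS with no LPS, where Skil and Smad7 lie right of 0 and Smad3, Tgfbr2 and Tgfbr1 left of it.

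Tgfbi was nevertheless the only member that stood above vehicle on every HDHEA array of the same experiment. Its 9 within-experiment differences ran from 0.06 to 0.52, and 1.75% of all genes tested had all 9 above 0. With 13-HDHEA the group difference was 0.14 (95% interval -0.59 to 0.87), and with 16-HDHEA it was 0.25 (95% interval -0.48 to 0.98). With the combined treatment it was 0.47 (95% interval -0.26 to 1.201), with 0.43, 0.47 and 0.52 in experiments 1, 2 and 3. The difference with 13-HDHEA turned to -0.11 without the vehicle array of experiment 2 and to -0.10 without the 13-HDHEA array of experiment 1. That with 16-HDHEA turned to -0.08 without the 16-HDHEA array of experiment 1. These fits had no term for experiment, so the groups compared then held different experiments, between which Tgfbi varied widely. The limma SE of each of the 3 group differences was 0.34, and 0.173 with experiment as a block. With experiment as a block, the combined treatment's unadjusted p for Tgfbi was 0.0193 and its limma adjusted p 0.939. In that fit 791 of all genes tested had an unadjusted p under 0.05.

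Tgfbr1 had the lowest difference of the 10 members with 16-HDHEA. It measured 5.76, 5.98 and 5.71 with 16-HDHEA, against 6.14, 6.29 and 5.88 with vehicle. The difference was -0.29 (95% interval -0.60 to 0.03, limma unadjusted p = 0.0699 and adjusted p = 1), and it was below 0 in 3 of 3 experiments, from -0.38 to -0.17. With experiment as a block the unadjusted p was 0.0437 and the adjusted p 1. In that fit 686 of all genes tested had an unadjusted p under 0.05. With 13-HDHEA the Tgfbr1 difference was -0.14 (95% interval -0.45 to 0.17) and with the combined treatment -0.06 (95% interval -0.37 to 0.26). The combined-treatment value was 0.04 without the vehicle array of experiment 2 and 0.06 without the combined-treatment array of experiment 3. Tgfbr1, singled out after its values were seen, was below vehicle in 8 of its 9 within-experiment differences, a count not made for all genes. The other 8 members were mixed in sign, with 3 to 6 of 9 differences above 0.

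The single compounds were compared at the matched dose of 5.0 µM, which is the 1 pair of treatments that the doses allow to be compared directly. No member was called between 13-HDHEA and 16-HDHEA, where 0.00646% of all genes tested were called, again the 1 gene Mnd1, and 480 genes had an unadjusted p under 0.05. Tgfbi differed by -0.11 (95% interval -0.84 to 0.63), with -0.28, 0.05 and -0.09 in experiments 1, 2 and 3, and by 0.22 without the 16-HDHEA array of experiment 1 and 0.08 without the 13-HDHEA array of experiment 2. Tgfbr1 differed by 0.14 (95% interval -0.17 to 0.46). For the 9 members other than Tgfbi the intervals lay within -0.36 to 0.50, so that the data bound how far the isomers can differ but do not show that they act alike. The combined treatment held 2.5 µM of each compound, and its values stand beside those of the single compounds without a test between them.

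The rest of the pathway was read from 10 lists of genes around the members. Of 142 genes listed, 137 had a probe set and 115 were tested. LPS raised 16 of the 115 (13.9%) and lowered 23 (20%), beside 13.5% and 16.3% of all genes tested. The split between higher and lower depended on the setting. It was 19 higher and 18 lower with arrays centred on their medians, 20 and 19 with only the compared groups in the fit, and 20 and 31 with experiment as a block. The block added 12 calls and removed none. Over all 15468 genes tested, calls in either direction also rose with the block, from 4616 to 5313. The median difference of the 115 was -0.02, against 0.00 for all genes. The shares of all genes above also stand beside the counts of each list below, and no list was tested as a whole.

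**Figure D4:**
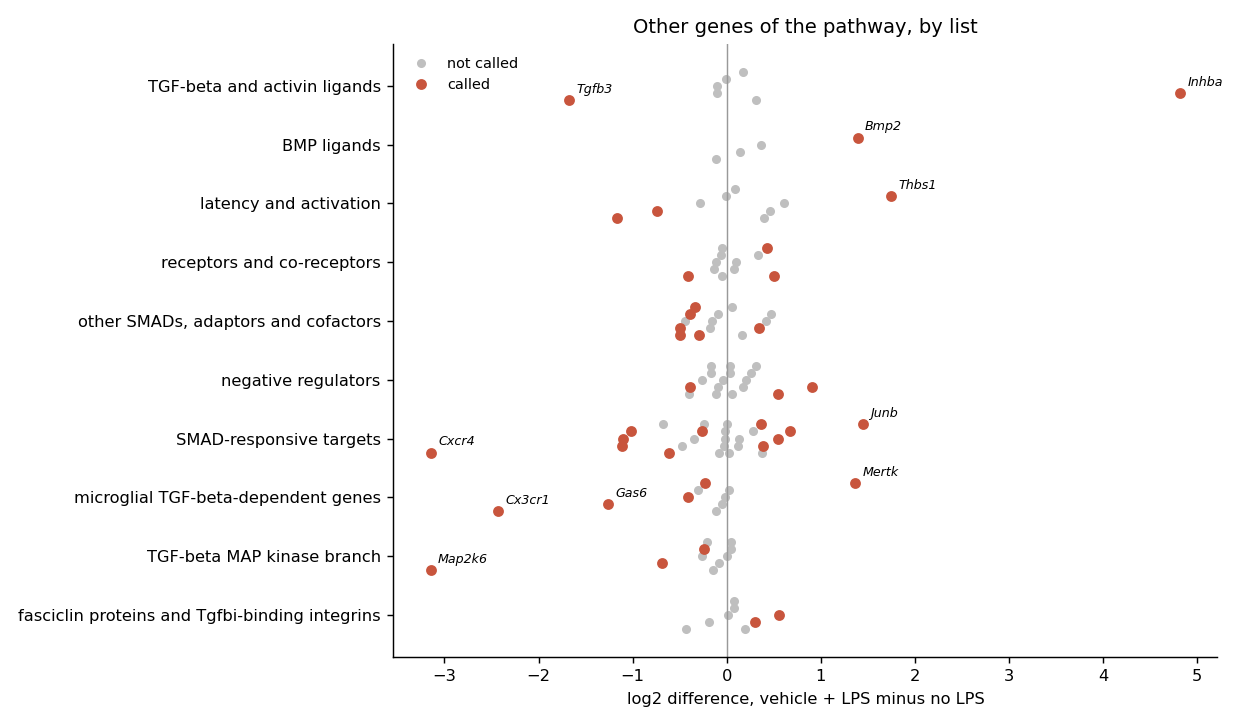
Log2 difference of LPS with vehicle minus no LPS (horizontal axis) for each tested gene of the 10 pathway lists, with lists down the page. Red points are genes called at an adjusted p under 0.05 and grey points are not called, and the called genes farthest from 0 are named. Inhba lies farthest to the right, and Map2k6 and Cxcr4 farthest to the left.

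Among 7 TGF-beta and activin ligands, 1 rose, 1 fell and 5 were not called. Inhba, the activin A subunit, averaged 7.64 ± 0.45 with LPS and vehicle and 2.82 ± 0.06 without LPS (SD, n = 3 each). The level without LPS was below the filter on low values, so that Inhba rose at least 22.2-fold (limma adjusted p = 2.76e-08). Tgfb3, a second TGF-beta isoform, fell by 1.67, with 4.69 ± 0.20 against 6.36 ± 0.03 (adjusted p = 1.1e-06). Tgfb2 and Inha differed by 0.31 and 0.18 and were not called. Tgfb2 was called with only the compared groups in the fit (limma adjusted p = 0.043). Inha was called without the LPS and vehicle array of experiment 2 (0.0356). Of 4 genes of the BMP list, not all of them ligands, Bmp2 rose by 1.39 (adjusted p = 0.00393). Gdf5, Bmp1 and Bmp7 differed by 0.36, 0.14 and -0.12 without a call. Gdf5 was called with only the compared groups in the fit (limma adjusted p = 0.0489) and with centred arrays (0.0486).

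Of 9 genes of latency and activation, 1 rose and 2 fell. Thrombospondin 1, Thbs1, which releases TGF-beta from its latent complex, rose at least 3.05-fold (limma adjusted p = 1.56e-06). The protease gene Plau fell by 1.17 (adjusted p = 0.00396), and Nrros, which anchors latent TGF-beta on myeloid cells, fell by 0.74 (adjusted p = 0.000203). Ltbp4 differed by -0.29 and was not called, except without the no-LPS array of experiment 3 (limma adjusted p = 0.0421). Furin and Itgav, at 0.61 and 0.46, were not called without a block but were called with experiment as a block (limma adjusted p = 0.0126 and 0.000526). Among 11 other receptors and co-receptors, Acvrl1 and Acvr1b rose by 0.43 and 0.51, Bmpr1a fell by 0.41, and 8 were not called, with Bmpr2 at 0.34 (adjusted p = 0.0129 with experiment as a block). Acvr1b was called in only 1 of 6 fits that left out 1 array (adjusted p up to 0.136). Bmpr1a lost its call without the array of experiment 3 in either group (adjusted p = 0.086 without that with LPS and vehicle and 0.0572 without that of no LPS).

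Of 14 other SMADs, adaptors and cofactors, 1 rose and 5 fell. Hgs, an endosomal adaptor for SMADs, rose by 0.35 (limma adjusted p = 0.00263). Smad1, a carrier of the BMP branch, fell by 0.49 (adjusted p = 0.00542), and the transcription factor Sp1 fell by 0.50 (adjusted p = 0.00103). Trim33, a ubiquitin ligase that binds SMAD complexes, fell by 0.34 (adjusted p = 0.0071). Of 17 regulators other than the members, most but not all of them negative, 2 rose, 1 fell and 14 were not called. The 2 that rose were Smurf1, the ubiquitin ligase that partners SMAD7, by 0.91 (adjusted p = 1.92e-05), and the corepressor Tgif1 by 0.55 (adjusted p = 0.00018), while Ldlrad4 fell by 0.39 (adjusted p = 0.00764). Pmepa1 differed by 0.32 and was not called. It was called with centred arrays (limma adjusted p = 0.0327) and with repeated quantile normalization (0.0465). It was also called without the LPS and vehicle array of experiment 2 (0.0266). With experiment as a block, the inhibitory Smad6 (-0.45, adjusted p = 0.0425), Smurf2 (-0.26, adjusted p = 0.0168) and Usp4 (0.21, adjusted p = 0.028) were called as well.

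The targets that SMADs are known to act on in other cells did not move one way. Of 25 tested, 5 rose (20%), 6 fell (24%) and 14 were not called, with a median of -0.02. Among all genes tested, 13.5% were called higher and 16.3% lower. The chemokine receptor gene Cxcr4 fell by 3.14, with 6.41 ± 0.27 with LPS and vehicle against 9.54 ± 0.18 without LPS (SD, n = 3 each, limma adjusted p = 6.35e-09). Junb, an AP-1 subunit, rose by 1.44 (adjusted p = 1.88e-06), the cell cycle inhibitor Cdkn1a rose by 0.38 (adjusted p = 0.00256) and Klf11 fell by 0.61 (adjusted p = 0.00653). With experiment as a block Klf10 (-0.68, adjusted p = 0.0199) and Ahnak (-0.48, adjusted p = 0.0222) were called too. Many of these genes also answer to other signals. Of 10 genes tested that mouse microglia express, many of them under TGF-beta control, 1 rose (10%) and 4 fell (40%). The shares of all genes were again 13.5% and 16.3%, and the list was not tested as a whole. The fractalkine receptor gene Cx3cr1 fell by 2.43 (adjusted p = 3.54e-07) and the growth factor gene Gas6 by 1.26 (adjusted p = 3.22e-05). Mertk, a receptor for the Gas6 protein, rose by 1.36 (adjusted p = 0.000489), and Pros1 was called lower but lay near or below the filter in both groups.

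In the MAP kinase branch that TGF-beta receptors feed through TAB1 and TAK1, 0 of 10 rose and 3 fell (30%). Of all genes tested, 13.5% were called higher and 16.3% lower, and the list was not tested as a whole. Map2k6, a kinase upstream of p38, measured 3.21 ± 0.20 with LPS and vehicle and 6.35 ± 0.47 without LPS (SD, n = 3 each), and fell by 3.14 (limma adjusted p = 2.56e-08). Its level with LPS lay at the filter, which averaged 3.17 on these arrays, and below it on 1 of the 3, so the size of the difference is not well measured. Tab1 fell by 0.69 (adjusted p = 3.4e-05). Mapk14, the p38 alpha kinase, fell by 0.24 (adjusted p = 0.0356) but was called in only 1 of 6 fits that left out 1 array. Its call was also lost with only the compared groups in the fit (adjusted p = 0.115), with no filter (0.064), with centred arrays (0.16) and with repeated quantile normalization (0.0706). Map2k3 and Tab2 differed by -0.27 and -0.21, and neither was called. With experiment as a block both were called lower (limma adjusted p = 0.0102 and 0.0273), which made 5 of 10. The block also gave 5313 calls in either direction over all 15468 genes, in place of 4616. Map2k3 was also called with the 60th percentile filter (0.0384), repeated quantile normalization (0.0499) and an intensity trend with robust variances (0.0309). Of 8 genes for other fasciclin proteins and for integrins, Stab1 rose by 0.55 (adjusted p = 0.000919) and Itgb2 by 0.30 (adjusted p = 0.00891). Itgb1 and Itgb5 differed by -0.19 and -0.43 and were not called. Both were called with experiment as a block (limma adjusted p = 0.0454 and 0.0426). Itgb1 was also called with an intensity trend and robust variances (0.0276). Itgb5 was also called without the LPS and vehicle array of experiment 1 (-0.63, limma adjusted p = 0.0474).

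Of the 115 pathway genes, 0 were called by limma in any comparison of HDHEA with vehicle, with a lowest adjusted p of 0.953. An unadjusted p under 0.05 was found for 8 of them with 13-HDHEA (6.96%, against 4.27% of all genes tested), 2 with 16-HDHEA (1.74% against 2.97%) and 6 with the combined treatment (5.22% against 3.48%). The lowest difference was that of Bmp2 in each comparison with vehicle, -0.69 with 13-HDHEA, -0.53 with 16-HDHEA and -0.70 with the combined treatment. The Bmp2 arrays with vehicle were themselves far apart, at 5.96, 6.24 and 4.90. Inhba, chosen here after its values were seen, was below vehicle in all 9 within-experiment differences, from -0.57 to -0.27, as was the case for 2.14% of all genes tested and for 4 of the 115. Another 4 of the 115, Runx1, Fn1, Gas6 and Itgb2, were above vehicle in all 9, against 1.75% of all genes tested. The group differences of Inhba were -0.44, -0.41 and -0.48 with 13-HDHEA, 16-HDHEA and the combined treatment, none of them called.

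Likeness to Tgfbi was read over 13486 tested protein-coding genes, with predicted genes and clone names left out. Those most like it by Pearson correlation over the 15 arrays were Nrp1 (0.986), Mprip (0.98), Mcmbp (0.972), Nes (0.971) and Pip4k2a (0.971). Nrp1 encodes neuropilin 1, a co-receptor, and Nes the intermediate filament protein nestin. All 5 had a negative difference between LPS with vehicle and no LPS, from -1.63 in Nes to -0.52 in Mcmbp. Among the members, Tgfbr2 correlated with Tgfbi at 0.91 and Smad3 at 0.852, and Skil at -0.906. These values describe arrays that share the split between LPS and no LPS, and they are given without a test.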

How the data were processed

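Total RNA was labelled with biotin in an Affymetrix whole-transcript assay, per the labels' protocols. The deposited log2 values were made with RMA, per the submitters' processing notes, and for neither RMA nor the chip definition is a version given in the sources used here. RMA quantile-normalizes arrays, which hides any change common to most genes. Of 41345 probe sets, 23521 had 1 gene symbol in the platform's table, 1814 had several and named no gene. The probe set with the highest mean was kept, leaving 22180 genes, of which 15468 exceeded the array's 40th percentile (3.16 to 3.22) in at least 3 arrays.

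Group means over all 15 arrays were fitted with limma 3.58.1 in R 4.3.3 (10 residual degrees of freedom, two-sided). Calls are at a Benjamini-Hochberg adjusted p under 0.05, over all 15468 genes. The fit was tested on simulated data. Fold bounds run from the filter level. The members and lists were chosen with earlier results of these data known. Named were all members, up to 4 genes of each list with the smallest LPS p, list genes called with HDHEA, the 5 genes most like Tgfbi and its 2 neighbours on each side. Other genes were named after their values were seen.

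Replicate numbers mark shared experiments, per the labels. Deviations from group means correlated at 0.0835 to 0.404 over the 30 same-numbered pairs, and all 15 arrays were closest to arrays of their own number. No 2 arrays were identical. Alternatives were a replicate block, other filters, scalings and variance models, the mean of probe sets, fits of only the compared groups, and each array left out.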

Additional observations from a re-analysis of the deposited data

How the results depend on the processing

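The LPS count of 5 called members of 9 was also 5 with experiment as a replicate block and with other filters, scalings and variance models. It was 5 with only the compared groups, and 3 to 5 when 1 array was left out. Mean probe sets gave 5 too, but could not change a member's values, since each member had exactly 1 probe set. The count of 3 came without the LPS and vehicle array of replicate 3. With the replicate block, which pairs arrays of an experiment, 51 pathway genes were called in place of 39, and all 12 that changed are named above. Over all 15468 genes the block gave 5313 calls in place of 4616, and it changed no member's call. That pathway count was 34 to 41 under the other settings and 31 to 37 with 1 array left out. With the 60th percentile filter it was 39 of only 76 pathway genes tested, in place of 115. In every HDHEA comparison 0 members were called under all settings.

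Signs turned only where no call was made. Centring arrays gave Smad4 0.017 and Ski 0.045, and repeated quantile normalization gave Ski 0.036, for LPS against no LPS. Leaving out 1 array gave LPS ranges of -0.153 to 0.097 in Ski, -0.032 to 0.231 in Bmp1 and -0.241 to 0.069 in Bmp7. With 1 array left out, Tgfbi ranged from -0.105 to 0.423 with 13-HDHEA, -0.079 to 0.528 with 16-HDHEA and -0.364 to 0.222 between the isomers, and Tgfbr1 from -0.168 to 0.059 with the combined treatment. The LPS difference of Tgfbi ranged from -3.01 to -2.49. Fits with 1 array left out had no term for experiment, so the groups compared then held different experiments. The causes were not tested. Centring moved the median of all genes by 0.06 and the split of calls to 2534 higher and 2082 lower, against 2089 and 2527 as deposited. The 3 arrays a group and low signal in 1 or both groups of Inhba, Thbs1, Map2k6, Gas6, Pros1 and Ldlrad4 limit what can be resolved.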

Other observations

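Over the 12 arrays with LPS alone, the genes most like Tgfbi by Pearson correlation were Actn1 (0.956), Bicd2 (0.937), P2ry6 (0.932), Prkch (0.929) and Wsb1 (0.922). They differ from the 5 genes most like it over all 15 arrays. Actn1 encodes alpha-actinin, an actin cross-linker, and P2ry6 a receptor for extracellular nucleotides. Each of the 5 had the same order of experiments as Tgfbi, with Actn1 at 9.53, 9.20 and 9.32 in experiments 1, 2 and 3. The LPS difference of these genes was small beside that of Tgfbi, from -0.57 in Prkch to 0.26 in Wsb1. Over the same 12 arrays Ski was the member closest to Tgfbi, at 0.612, followed by Smad4 at 0.496 and Tgfb1 at 0.425, and Tgfbr2, Smad3, Skil, Smad7, Tgfbr1 and Smad2 lay between -0.25 and 0.17. These correlations rest on arrays that share 3 experiments, and they are a description.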
